A study of Mus musculus with 32 samples.

Results

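Mast cell proteases and the high-affinity IgE receptor were followed in mouse mammary tumours treated with sunitinib, through 8 genes chosen by name: the chymases Mcpt1, Mcpt2, Mcpt4 and Cma1, the tryptase Tpsb2, the carboxypeptidase Cpa3, and the receptor subunits Fcer1a and Ms4a2. The genes were found by matching the RefSeq accession of each array probe to a table of mouse gene symbols, which located all 8 among 20145 named genes. Tpsb2 has 2 probes, of which the brighter represents it, and the other 7 genes have 1 probe each. The tumours were grown from 4T1-Luc cells, a luciferase-carrying line of mouse mammary carcinoma, as grafts in a mammary fat pad. The hosts were Balb/C females, 8 weeks old at injection, and were given sunitinib at 40 mg/kg or its vehicle from a week later. Sunitinib is an inhibitor of receptor tyrosine kinases, among them the VEGF and PDGF receptors and KIT. The 32 single-colour arrays form 10 groups, and within a group each array is a separate mouse. At a tumour size of 1300 mm3, 4 vehicle mice, 4 sunitinib mice labelled sensitive to the drug over the period up to day 8 and 4 labelled resistant over that period each gave an EC fraction, selected with beads against the endothelial surface protein PECAM-1 from the digested tumour, and a bulk fraction, the digested tissue that remained. Bulk tumours of 2 sunitinib mice, labelled sensitive, and 2 vehicle mice were resected at day 9, and as many at 600 mm3. All groups carry tumours of the same line, and all tumours at 1300 mm3 were digested before the fractions were taken.

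Mast cells mature in the tissue from bone marrow progenitors and depend on KIT, the receptor for the stem cell factor encoded by Kitl. Their granules hold proteases that are stored with heparin and released when antigen cross-links IgE bound to the receptor FceRI. In mice, Mcpt1 and Mcpt2 are known from mucosal mast cells, and Mcpt4, Cma1 (mouse mast cell protease 5), Tpsb2 (mouse mast cell protease 6) and Cpa3 from connective tissue mast cells. Fcer1a encodes the chain of FceRI that binds IgE and Ms4a2 the chain that amplifies its signal. Both receptor chains are also made by basophils.

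Levels below are on a log2 scale relative to the 75th percentile of processed signals on the same array, so that 0 means a signal equal to that percentile, and levels of different probes are not set against each other. The scanner software calls each probe as well above background or not, and the share called above was 46.1% to 52.8% on EC arrays from resistant mice and higher on the other EC arrays, at 79.9% to 86.4% (sensitive) and 80.3% to 82.2% (vehicle). It was between 55.3% and 83.2% on the 20 bulk arrays. The 8 arrays of resistant mice share 1 slide with no other group, and slide and resistance cannot be told apart. Elsewhere column 1 of a slide holds only sunitinib and column 2 only vehicle samples, so column and treatment cannot be told apart. In these bulk RNA samples fewer mast cells and less RNA per mast cell cannot be told apart. Replicates are separate mice, and their small number limits precision.

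The 4 chymase genes lie together on chromosome 14. In the RefSeq annotation of GRCm38.p6 their order with their neighbours is Cma1, the pseudogene Mcpt-ps1, Cma2, the pseudogene Gm5801, Mcpt1, Mcpt2, Mcpt9 and Mcpt4. Cpa3 lies on chromosome 3, Fcer1a on chromosome 1, Tpsb2 on chromosome 17 and Ms4a2 on chromosome 19. RefSeq promoter sequences of GRCm38.p6 were matched for 6 of the 8 genes, and the 250 bases before the start of transcription were searched on both strands for the letters GATAA, the core of the site bound by GATA factors such as the mast cell factor GATA2, and for the E-boxes CATGTG and CACGTG, which MITF, a factor of mast cells and pigment cells, can bind. GATAA was found before all 6 genes and before 22.6% of 32851 RefSeq promoters of the same length. CATGTG was found before 1 of the 6, Fcer1a, and before 12.3% of all promoters, and CACGTG before 0 of the 6 and before 6.02% of all. Such a match is a description of letters and was not tested as a binding site. The 4 sequences below are shown because the first pair are similar promoters within the chymase cluster and the other pair stand for the carboxypeptidase and the receptor, all of which moved together in the arrays. Capitals mark GATAA or its reverse complement TTATC, and in Fcer1a also CACATG, the reverse complement of CATGTG.
Mcpt1, chr14:56017714-56017963, plus strand: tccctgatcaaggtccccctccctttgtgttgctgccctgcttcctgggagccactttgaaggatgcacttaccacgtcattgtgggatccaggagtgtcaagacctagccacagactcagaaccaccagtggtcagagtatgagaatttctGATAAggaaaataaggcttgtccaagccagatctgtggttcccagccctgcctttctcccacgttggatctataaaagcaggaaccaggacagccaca
Mcpt4, chr14:56062311-56062560, minus strand: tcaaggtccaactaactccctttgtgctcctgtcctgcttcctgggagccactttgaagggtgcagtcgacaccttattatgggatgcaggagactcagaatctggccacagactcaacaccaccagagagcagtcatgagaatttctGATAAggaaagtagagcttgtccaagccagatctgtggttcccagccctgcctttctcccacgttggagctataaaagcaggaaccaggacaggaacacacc
Cpa3, chr3:20242182-20242431, minus strand: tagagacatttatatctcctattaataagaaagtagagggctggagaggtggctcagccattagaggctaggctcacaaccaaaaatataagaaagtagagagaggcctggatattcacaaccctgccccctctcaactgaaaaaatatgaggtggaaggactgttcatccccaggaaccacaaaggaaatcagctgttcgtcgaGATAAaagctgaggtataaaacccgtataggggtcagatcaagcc
Fcer1a, chr1:173227230-173227479, minus strand: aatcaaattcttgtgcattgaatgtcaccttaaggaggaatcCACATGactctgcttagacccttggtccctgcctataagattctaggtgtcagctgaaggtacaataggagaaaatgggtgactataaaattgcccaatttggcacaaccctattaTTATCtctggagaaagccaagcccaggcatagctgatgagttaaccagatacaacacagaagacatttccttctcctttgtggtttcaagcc

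Counted from the start of transcription, the match in Mcpt1 lay at bases -98 to -94 and that in Mcpt4 at bases -102 to -98, both on the strand of the gene, and 209 of 242 aligned promoter bases (86.4%) were identical. In Cpa3 it lay at bases -45 to -41. The match of Fcer1a lay on the other strand, from base -92 to base -88. In Cma1 it lay on the other strand at bases -194 to -190, and Ms4a2 had 3 matches. Chymase genes are similar in sequence, and the arrays' probe sequences were not used here, so that signal shared between Mcpt1, Mcpt2, Mcpt4 and their neighbours remains uncertain.

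The proteases were measurable almost throughout. Mcpt4, Cpa3 and both probes of Tpsb2 were well above background on all 32 arrays, Mcpt1 and Mcpt2 on 31, Cma1 on 30 and Fcer1a on 27. Ms4a2 was well above background on only 3 arrays, those of the EC fraction of sensitive mouse 2 and vehicle mouse 5 and of vehicle mouse 3 at 600 mm3, and was never tested. Its highest value, -3.37 in the bulk of resistant mouse 2, was not well above background. No comparison was made for the amplifying chain of the IgE receptor, and the results below concern the other 7 genes.

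The levels of these 7 genes covered a wide range over the arrays. Over all 32 arrays Mcpt2 ran from -5.90 to 4.13, Mcpt1 from -5.40 to 4.36, Mcpt4 from -3.46 to 4.59 and Cpa3 from -4.52 to 2.47. Fcer1a ran from -7.05 to 0.69, Cma1 from -5.40 to 0.21 and Tpsb2 from -1.56 to 2.67. The EC fraction of resistant mice had the highest mean of the 10 groups for 7 of the 7 genes. Sunitinib-treated tumours at 600 mm3 had the lowest for 6, the exception being Tpsb2, which was lowest in the bulk of resistant mice. The share of all features with these rankings was not computed. The 75th percentile to which levels refer was lower on resistant EC arrays (log2 7.92 to 8.65) than on other EC arrays (9.25 to 9.83). Its part in the rankings was not tested. For Mcpt4 the mean fell in the order EC resistant 3.04 ± 1.29 (SD, n = 4), EC sensitive 2.16 ± 1.31 (n = 4), EC vehicle 1.60 ± 0.40 (n = 4), vehicle at 600 mm3 0.57 ± 2.46 (n = 2), bulk resistant 0.02 ± 0.72 (n = 4), bulk vehicle -0.19 ± 1.12 (n = 4), vehicle at day 9 -0.26 ± 1.44 (n = 2), bulk sensitive -0.47 ± 0.70 (n = 4), sunitinib at day 9 -0.57 ± 0.95 (n = 2) and sunitinib at 600 mm3 -3.43 ± 0.04 (n = 2). Neighbours in that order differed by less than the SD of one of them, apart from the last step.

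**Figure D1:**
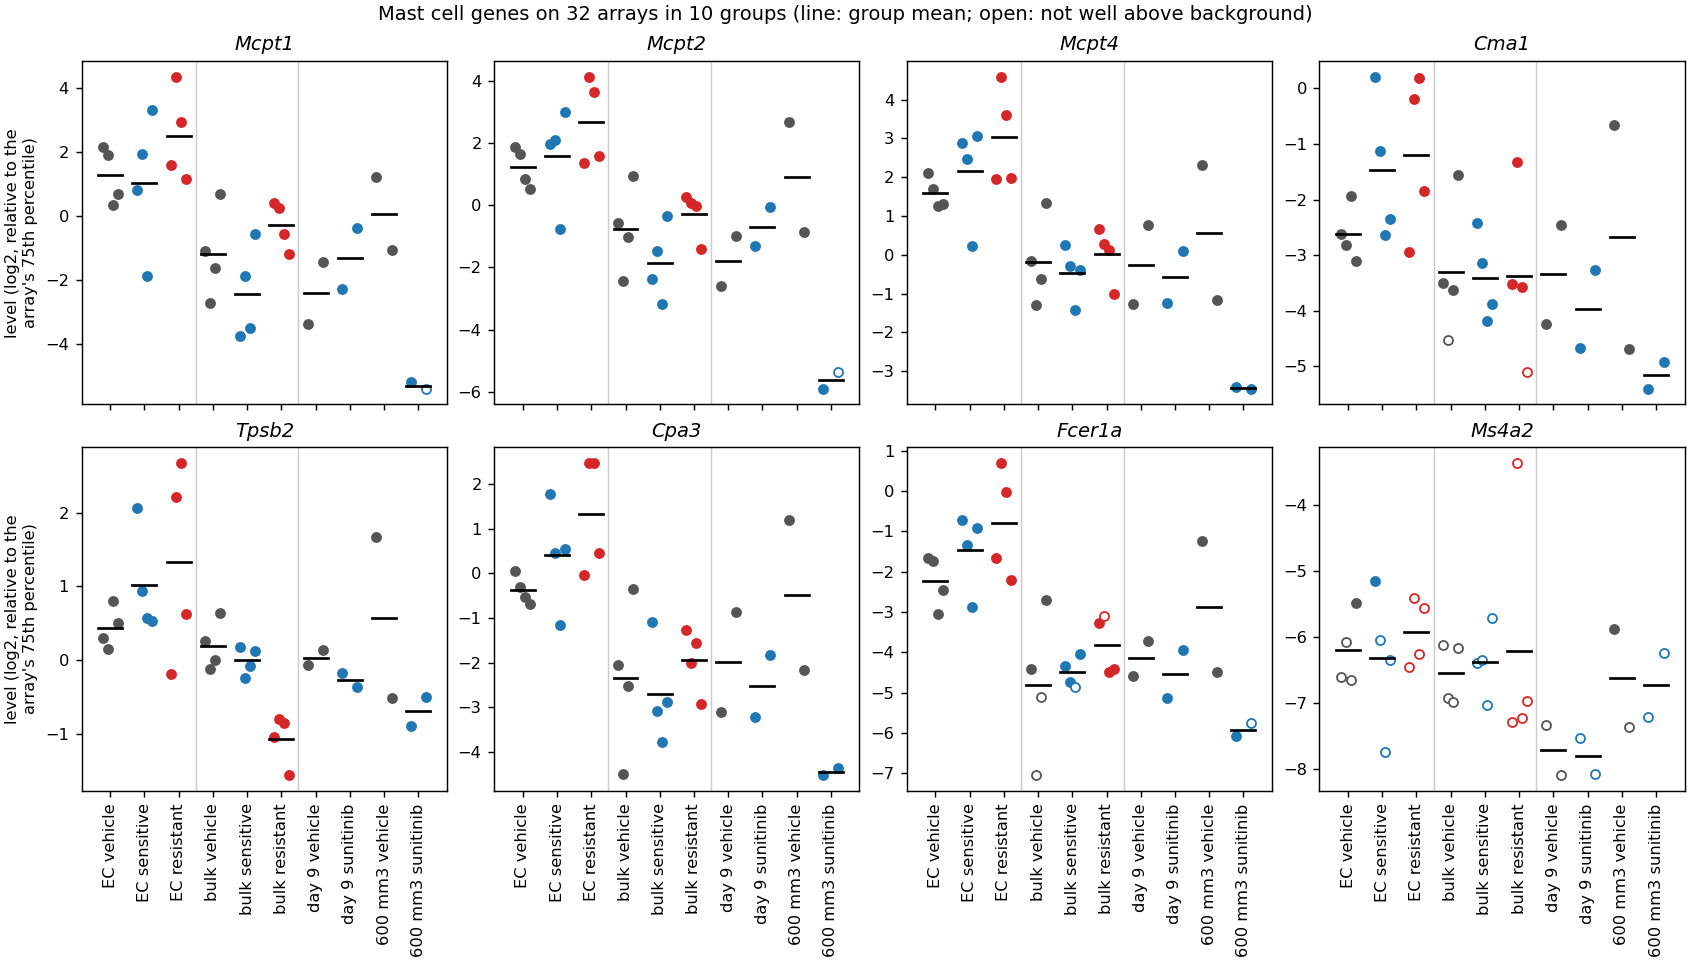
Levels of the 8 mast cell genes on 32 arrays in 10 groups, on a log2 scale relative to the 75th percentile of each array; each point is 1 array, open where the probe was not well above background, and each line a group mean. The EC groups lie on the left of each panel and are high for 7 genes, the 2 sunitinib arrays at 600 mm3 lie at the right edge and are low, and Ms4a2 is open on 29 of 32 arrays.

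What the bead selection did to mast cell transcripts was read from both fractions of the same 12 tumours. For sensitive and vehicle mice all EC arrays lie on slide 2 and all bulk arrays on slide 3, so that fraction and slide cannot be told apart there. Both fractions of the 4 resistant mice lie on slide 4, and their values are given separately further on. All 7 measured genes were higher in the EC fraction, by 2.33-fold (Tpsb2) to 7.49-fold (Mcpt1). The mucosal protease Mcpt1 ranged from -1.87 to 4.36 (median 1.76) in the EC fraction and from -3.75 to 0.70 (median -1.13) in bulk. Mcpt1 rose by 2.90 (SE 0.41, n = 12 mice, limma adjusted p = 0.000318). The distributions of the fractions overlap, but 11 of 12 mice had the higher value in the EC fraction. Mcpt2 rose by 2.79 (SE 0.37) and Mcpt4, a chymase of connective tissue mast cells, by 2.48 (SE 0.30). For Cma1, also a connective tissue protease, EC levels ran from -3.10 to 0.21 and bulk levels from -5.11 to -1.33, and the rise was 1.60 (SE 0.35, adjusted p = 0.00425), higher in 11 of 12 mice.

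The remaining granule proteases moved the same way. Cpa3, which trims peptides left by the chymases, ranged from -1.16 to 2.47 (median 0.25) in the EC fraction and from -4.49 to -0.36 (median -2.29) in bulk, a rise of 2.79 (SE 0.36, adjusted p = 0.000205). Cpa3 was higher in the EC fraction in 11 of 12 mice. The tryptase Tpsb2 rose by 1.22 (SE 0.22, adjusted p = 0.0016) by its brighter probe and by 1.91 (SE 0.31, adjusted p = 0.00072) by the other. Fcer1a, the IgE-binding chain, ranged from -3.04 to 0.69 (median -1.66) in the EC fraction and from -7.05 to -2.70 (median -4.43) in bulk, where it was well above background in 8 of 12 samples. Its rise was 2.89 (SE 0.39, adjusted p = 0.000275), and it was the only one of the 7 that was higher in the EC fraction in 12 of 12 mice. Of all 41783 features tested 34.9% passed in this comparison, 18.0% of them higher and 16.9% lower as shares of all tested, with a median difference of 0.04 against 2.79 for the 7 genes. An EC level above bulk in every mouse was found for 4.95% of features.

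**Figure D2:**
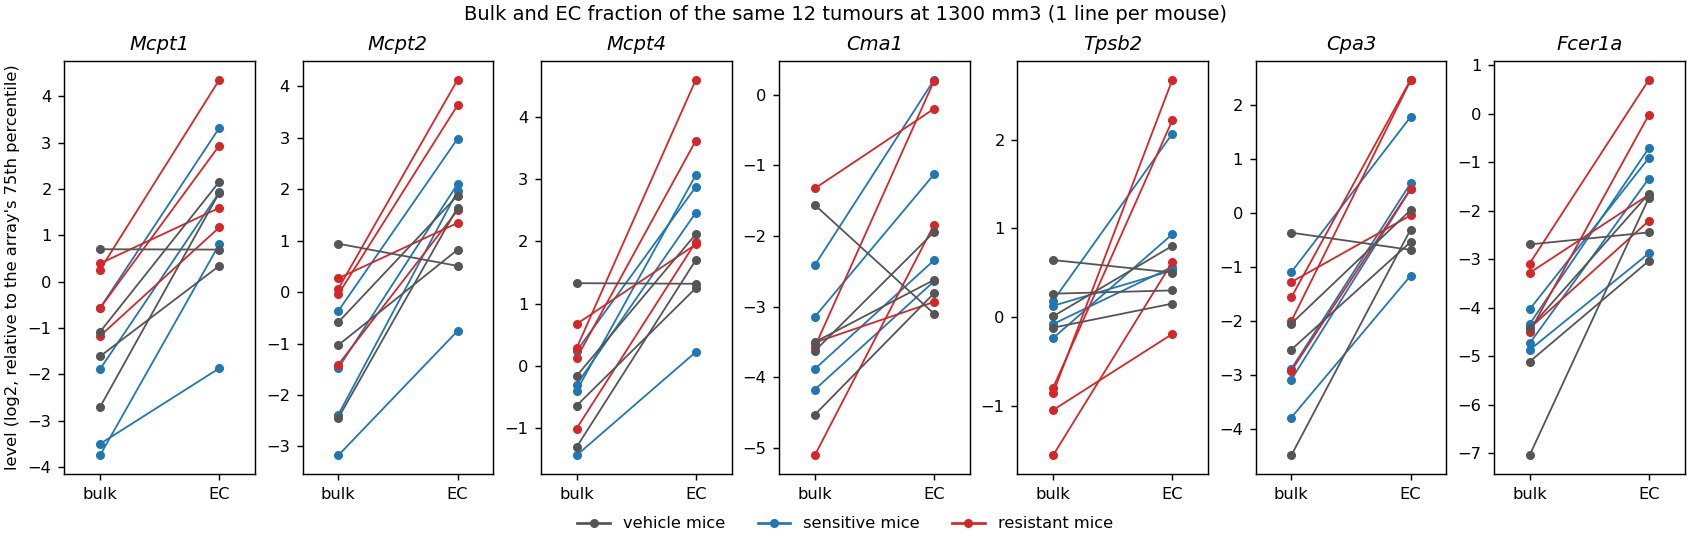
Levels of the 7 measured genes in the bulk and EC fraction of 12 tumours at 1300 mm3, on a log2 scale relative to the 75th percentile of the array; each line joins the fractions of 1 mouse. Nearly all lines rise from bulk to EC, and the only falling line, in 6 of the 7 genes, is that of vehicle mouse 5; for Tpsb2 that of vehicle mouse 2 is nearly flat, at 0.037.

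Vehicle mouse 5 was the exception for 6 of the 7 genes. Its bulk fraction held the highest level of the 12 bulk samples for Mcpt1, Mcpt2, Mcpt4, Cpa3, Tpsb2 and Fcer1a, for instance 1.33 for Mcpt4, against 1.32 in its EC fraction. Within treatment groups all 7 genes rose in resistant mice, whose fractions share a slide (adjusted p 0.00445 to 0.0343, against 13.8% of all features called, 6.91% higher and 6.89% lower) and 6 in sensitive mice (18.9% of features called, 9.58% higher and 9.36% lower), where Tpsb2 differed by 1.02 with an adjusted p of 0.0906. In resistant mice the median difference over all features was -0.18. The 75th percentile to which levels refer was log2 7.92 to 8.65 on their EC arrays and 9.52 to 9.77 on their bulk arrays. The part of that gap in the rises of the 7 genes was not tested. In vehicle mice only Mcpt1 (2.45), Fcer1a (2.60) and Mcpt4 (1.79) passed, with 14.5% of features called, 9.05% higher and 5.48% lower. The spread of the differences in vehicle mice was large, from -0.43 to 4.09 for Mcpt2. Whether the fraction difference itself changed with treatment was tested: 0 of the 7 genes passed for sensitive against vehicle mice (0% of features called, and 0 of the 7 at an unadjusted p under 0.05) and 0 for resistant against vehicle mice (0.299% called, 0.0120% higher and 0.287% lower, and 1 of the 7 unadjusted). The median of the resistant effect over all features was -0.29, and of the called features 4% were higher in the main setting, 61% with normexp, 24.2% after quantile normalisation and 22.9% in the deposited values. That 1 gene was Tpsb2, whose EC minus bulk difference was larger by 2.16 (SE 0.55, adjusted p = 0.115) in resistant mice, and it passed once resistant mouse 1 was left out (adjusted p = 0.0397).

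Most other genes tied to mast cells were also higher in the EC fraction. The counts in this paragraph stand beside 18.0% of all features higher and 16.9% lower in the same comparison. With group means removed, Kit correlated with the 7 genes by only -0.19 to -0.04. Of 20 other measured genes tied to mast cells 13 rose and 1 fell in the EC fraction, with a median difference of 1.14. Gata2, a transcription factor of mast cells and of endothelium, rose by 3.45 (SE 0.13), Kit by 2.03 (SE 0.21), Mitf by 1.71 (SE 0.20) and Hpgds, the prostaglandin D synthase of haematopoietic cells, by 2.67 (SE 0.35). The serotonin-synthesising enzyme Tph1 rose by 2.12 and the gamma tryptase Tpsg1 by 2.16, while Rab27b, a factor of granule secretion, fell by 0.67. Histidine decarboxylase, Hdc, differed by 0.55 with an adjusted p of 0.106. Among 13 signalling genes downstream of FceRI 9 rose and 2 fell: the phosphatase Inpp5d rose by 1.83 (SE 0.17), the kinases Syk and Lyn by 1.78 and 1.71 and Fyn by 1.12, and the adaptor Lat fell by 1.81. Of 12 genes of the KIT axis and other mast cell growth factors 7 rose and 0 fell, among them Kitl by 0.43 (SE 0.15, adjusted p = 0.0473).

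Markers of other cells moved with the selection as well. Endothelial markers were higher in the EC fraction for 9 of 10 genes and macrophage markers for 9 of 9, with medians of 4.56 and 2.24, and 5 of 7 basophil genes rose, among them the basophil proteases Prss34 by 1.27 and Mcpt8 by 0.90. The summed signal of the macrophage list, relative to the 75th percentile on a linear scale, was 188 to 1335 on the EC arrays and 40.9 to 215 on the bulk arrays at 1300 mm3. That of the basophil list was 13.6 to 28.9 against 8.76 to 28.0. Such a sum leans on the brightest probes of a list. In the basophil list these were Ptprc and Il3ra, with mean levels of 2.73 and 2.01 over the 32 arrays. Mcpt8 and Prss34 had means of -0.93 and -2.11. Tumour epithelial markers fell for 8 of 8 genes. Of 9 eosinophil genes 0 passed over the 12 mice, but 7 rose in the EC fraction of vehicle mice alone, 0 passed in sensitive mice alone and 5 fell in resistant mice alone. On resistant EC arrays only 3 to 7 of these 9 genes were well above background. Prg2, the eosinophil major basic protein, rose by 3.22 (adjusted p = 0.0146) in vehicle mice and fell by 2.63 (adjusted p = 0.0317) in resistant mice. Mcpt8 was well above background on all 32 arrays and Prss34 on 31. Their part in the result was not tested.

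The effect of sunitinib in the EC fraction was asked next, against the same 4 vehicle mice for both responses. In sensitive mice none of the 7 genes passed, and neither did any other of 40665 features (0%), with 0 of the 7 genes and 3.61% of features at an unadjusted p under 0.05. Differences ran from -0.23 for Mcpt1 (95% interval -2.36 to 1.89) to 1.14 for Cma1 (-0.41 to 2.70). The intervals of all 7 genes held 0 and reached past a 2-fold rise, so that a rise of that size was not excluded. The vehicle values of Mcpt1 were 2.16, 1.92, 0.34 and 0.69, and those of sensitive mice 0.81, 1.93, -1.87 and 3.32. Sensitive mice thus lay on both sides of the vehicle range. Sensitive mouse 4 had the lowest EC level of the group for Mcpt1, Mcpt2, Mcpt4, Cma1, Cpa3 and Fcer1a, and not for Tpsb2.

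In resistant mice all 7 genes were higher than in vehicle mice in the EC fraction, with differences of 0.89 to 1.70, and 1 passed. Cpa3 was 0.06, -0.31, -0.54 and -0.68 in vehicle mice and -0.04, 2.46, 2.47 and 0.45 in resistant mice. Resistant mice 2 and 3 were high, mouse 4 was somewhat above the vehicle range, and mouse 1 lay within it. The rise of Cpa3 was 1.70 (SE 0.65, adjusted p = 0.0385), or 3.25-fold. Mcpt2 differed by 1.46 (adjusted p = 0.132), Mcpt4 by 1.44 (0.0825), Cma1 by 1.43 (0.105), Fcer1a by 1.42 (0.0754), Mcpt1 by 1.24 (0.295) and Tpsb2 by 0.89 (0.185), by limma after adjustment. For each of these 6 genes as well, the highest EC values of resistant mice were those of mice 2 and 3.

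This count has to be read against 58.7% of all features called in the same comparison, 15.5% higher and 43.2% lower, and against a median of -0.47 over all features, while the 7 genes had a median of 1.43. That background moved with the scaling: 26.5% of called features were higher in the main setting, 39.5% after quantile normalisation, 41.6% in the deposited values and 71.1% with normexp background correction, with overall medians of -0.06, -0.03 and 0.28 in these 3. All 7 genes were higher in resistant mice under each of these scalings, but which genes passed was not. Cpa3 had an adjusted p of 0.0733 in the deposited values and 0.0674 after quantile normalisation, and Fcer1a and Cma1 passed in both. With normexp Cpa3 and Fcer1a passed. In the main setting the other Tpsb2 probe rose by 1.88 (adjusted p = 0.0351). Leaving out single mice moved the count from 0 to 5. It was 5 without resistant mouse 1, 3 without resistant mouse 4 and 2 without sensitive mouse 4, and 0 without resistant mouse 2 or 3 or any 1 of the 4 vehicle mice.

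Other mast cell genes did not move as a block in resistant EC samples. Of 20 measured, 1 rose, the granule membrane protein Cd63 by 0.93 (SE 0.23), and 2 fell, the receptor Mrgprb1 by 1.79 (SE 0.38) and the chymase Mcpt9 by 0.82 (SE 0.27). Over the 32 arrays Mrgprb1 was well above background on only 20 and Mcpt9 on only 14. Of 21 such genes with a probe, 15 to 18 were well above background on a resistant EC array and 20 on each vehicle EC array. Kit differed by 0.05 (SE 0.25, adjusted p = 0.882). Hpgds and Tph1 had differences of 1.19 and 1.20 with adjusted p of 0.0544 and 0.0689. Of the 13 FceRI signalling genes 1 rose, the adaptor Lat2 by 1.25, and 0 fell. Of 12 genes of the KIT axis and growth factors 1 rose, Il3ra by 0.64, and 5 fell, among them the interleukin receptor gene Il9r by 1.80. Of 7 basophil genes 1 rose, again Il3ra, and 2 fell, Prss34 by 1.82 and Il4 by 2.13. Beside these, 9 of 9 eosinophil genes fell (median -3.98, summed signal 0.667 to 1.40 in resistant and 4.54 to 58.9 in vehicle mice). On a resistant EC array 3 to 7 of these 9 genes were well above background, against 9 on each vehicle EC array. Of 9 macrophage genes 3 rose (summed signal 307 to 1335 against 188 to 654). The part of these genes of other cells in the result was not tested. Resistant and sensitive mice were also compared directly in the EC fraction: 0 of the 7 genes passed, with differences of 0.28 to 1.47 and 58.9% of features called (15.3% higher and 43.6% lower), and 0 of the 7 passed at an unadjusted p under 0.05. Of the called features 26.0% were higher in the main setting, 38.4% after quantile normalisation, 40.5% in the deposited values and 68.5% with normexp. Kit was lower in resistant than in sensitive mice by a difference of -0.61 (SE 0.25, adjusted p = 0.0499), a call kept in 5 of 10 alternative settings (adjusted p 0.00831 to 0.0853) and in 3 of 12 fits without a single mouse (adjusted p 0.0189 to 0.1502).

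**Figure D3:**
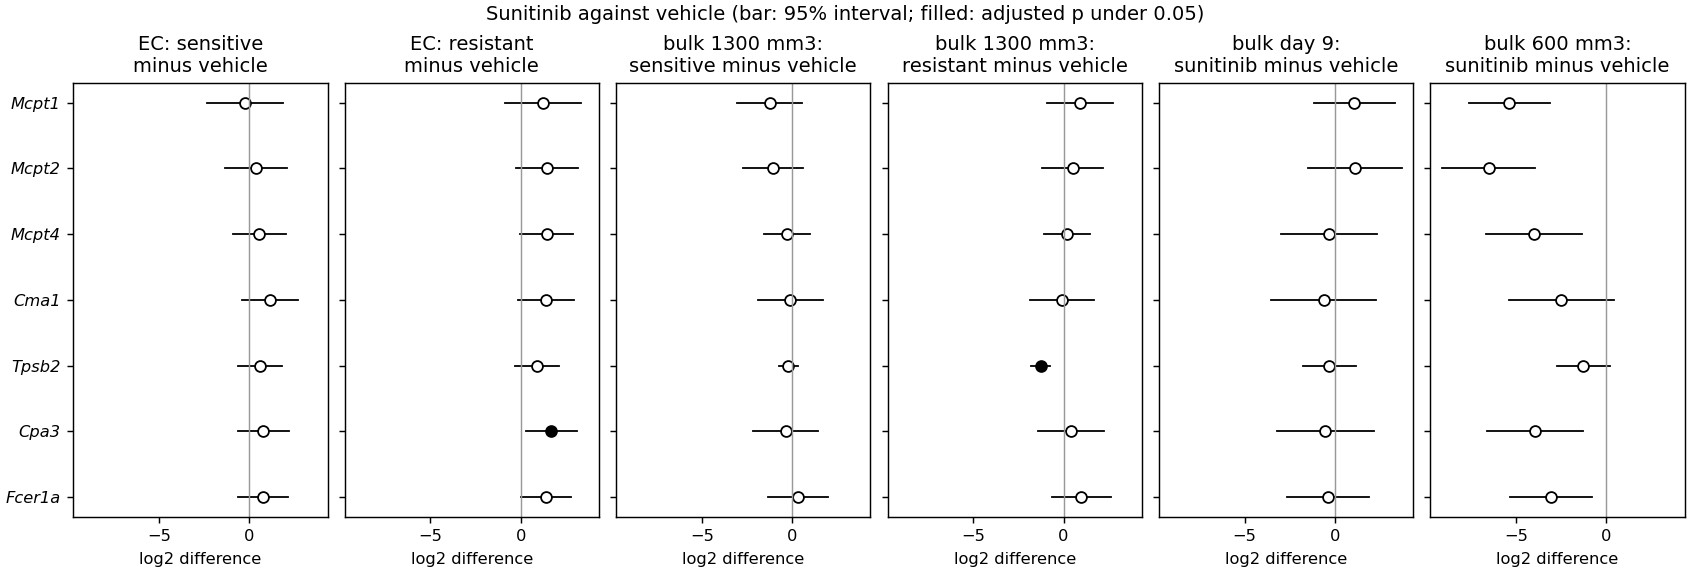
Differences between sunitinib and vehicle groups for the 7 measured genes, on a log2 scale, in 6 comparisons; points are differences, bars their 95% intervals from limma, and filled points have an adjusted p under 0.05. Only Cpa3 in the EC fraction and Tpsb2 in the bulk of resistant mice are filled, and the intervals at 600 mm3 lie furthest to the left, with a difference of -6.53 for Mcpt2.

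In the bulk fraction at 1300 mm3 most of the genes did not pass in either comparison of sunitinib with vehicle mice. For sensitive mice 0 of the 7 genes passed (0% of 36706 features; 0 of the 7 and 4.69% of features at an unadjusted p under 0.05), with differences from -1.25 for Mcpt1 to 0.32 for Fcer1a. For resistant mice 1 gene passed, and it fell. Tpsb2 was 0.26, -0.12, 0.01 and 0.64 in the bulk of vehicle mice, 0.18, -0.24, -0.08 and 0.13 in that of sensitive mice and -1.05, -0.80, -0.86 and -1.56 in that of resistant mice. All 4 resistant values lay below every vehicle and every sensitive value. The share of all features separated in this way was not computed for the bulk fraction, so the separation is only a description. Tpsb2 fell by 1.26 (SE 0.24, adjusted p = 0.00581) against vehicle, where 11.7% of features were called and 9.88% were lower and 1.81% higher, and by 1.06 (SE 0.24, adjusted p = 0.0117) against sensitive mice, where 16.4% were called, 13.4% lower and 2.99% higher. Both comparisons share the resistant samples. Of the called features 15.5% and 18.2% were higher in the main setting, and 26.1% and 29.3% in the deposited values.

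The second Tpsb2 probe did not show this fall. It read -1.69, -2.88, -1.99 and -0.47 in vehicle mice and -2.12, -0.96, -2.07 and -3.50 in resistant mice, which overlap, with a difference of -0.41 (SE 0.56, adjusted p = 0.713). The mean of both probes differed by -0.84 (adjusted p = 0.216). The probes correlated by 0.909 over the 32 arrays, and the level of the second followed that of Cpa3 more closely (r = 0.924) than the brighter one did (r = 0.782). The bulk fall of the tryptase rests on 1 of its 2 probes. None of the other 6 genes passed in resistant bulk. Mcpt1 was -0.27 on average in resistant mice and -2.43 in sensitive mice, a difference of 2.15 (SE 0.83, adjusted p = 0.103), which passed in the deposited values (2.11, adjusted p = 0.0325).

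Smaller tumours gave the widest differences, on 2 arrays a group. At 600 mm3, Mcpt2 was 2.66 and -0.87 in the 2 vehicle tumours and -5.90 and -5.36 in the 2 sunitinib tumours. Mcpt1 was 1.21 and -1.05 against -5.20 and -5.40. Cpa3 was 1.19 and -2.17 against -4.52 and -4.37. For 6 of the 7 genes, all but Tpsb2, both sunitinib tumours lay below both vehicle tumours. In these genes vehicle mouse 3 was high and the sunitinib tumours close together. Mcpt1, Mcpt2 and Fcer1a were well above background on only 1 of the 2 sunitinib arrays, not in mouse 4, so their differences rest in part on a value that the scanner did not separate from background. Such a separation downwards was found for 18.5% of all features and upwards for 31.9%.

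None of these differences passed the threshold. At 600 mm3 the difference was -6.53 for Mcpt2 (SE 1.10, adjusted p = 0.0769), -5.38 for Mcpt1 (SE 0.95, adjusted p = 0.0865), -4.003 for Mcpt4 and -3.96 for Cpa3 (adjusted p = 0.255 and 0.262), and -3.05, -2.49 and -1.27 for Fcer1a, Cma1 and Tpsb2. By limma 0 of the 7 genes were called, 5 of them at an unadjusted p under 0.05, against 0.288% of 38929 features called (0.152% higher and 0.136% lower) and 11.0% unadjusted. Without vehicle mouse 3 the differences were -4.76 for Mcpt2, -4.25 for Mcpt1, -2.27 for Cpa3 and -0.18 for Tpsb2, with 0 genes called. Without vehicle mouse 4, the median of the 7 genes was -5.64, in place of -3.96 with all arrays. Kit had values of -0.41 and -0.16 in vehicle and -3.04 and -2.44 in sunitinib tumours, a difference of -2.45 (SE 0.39, adjusted p = 0.0708). The ligand gene Kitl differed by -0.30 (SE 0.71).

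Markers of other tissues differed at 600 mm3 too. Of 8 skeletal muscle genes all were higher with sunitinib, 2 of them called, with a median difference of 3.22 and a summed signal of 42.7 to 71.0 against 10.1 to 19.2. The macrophage list had a median of -1.64, with 1 of 9 genes called lower and a summed signal of 76.5 to 128 against 304 to 306, and the endothelial list had a median of -2.17. Of 20 other mast cell genes 0 passed and 15 had lower values, led by Hpgds (-3.08, adjusted p = 0.0532). Of the FceRI signalling genes 1 of 13 fell, Lat2 by 1.77. The part of these in the result was not tested.

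At day 9 the genes did not share a direction. Mcpt2 was -2.61 and -0.99 in vehicle and -1.30 and -0.07 in sunitinib tumours, a difference of 1.11 (SE 1.10), and Mcpt1 differed by 1.08 (SE 0.95). Cpa3, at -3.10 and -0.87 against -3.21 and -1.84, differed by -0.54 (SE 1.14). The groups overlapped in 6 of the 7 genes, all but Tpsb2. The share of all features that overlap was not computed at day 9, so this count is only a description. None of the 7 passed, adjusted or unadjusted, against 0.00257% of features called. The change of the sunitinib effect between the times was -7.64 for Mcpt2 (SE 1.56, adjusted p = 0.196) and -6.45 for Mcpt1 (SE 1.35, adjusted p = 0.196), with the same limit from sunitinib mouse 4 at 600 mm3, and 0 of the 7 genes passed, with 0.0462% of features called (0.0385% higher and 0.00771% lower) and 2 of the 7 at an unadjusted p under 0.05. Averaged over both times, all 7 genes were lower with sunitinib, by 0.79 to 2.71 in size, and 0 passed (0% of features called, 5 of the 7 and 7.12% of features unadjusted). Vehicle bulk tumours of 1300 mm3 and smaller ones differed by -1.31 to -0.02, and 0 of the 7 genes passed, with 6.40% of features called (3.97% higher and 2.43% lower) and 0 of the 7 unadjusted. Those tumours lie on different slides, and the larger ones are the tissue that remained after bead selection. Whether the smaller ones were depleted in the same way is not given in the sources used here, so slide, depletion and size cannot be told apart.

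The 7 genes moved together from array to array. Over all 32 arrays the Pearson correlations of their 21 pairs ran from 0.568 to 0.975 with a median of 0.877, and with the 10 group means removed from 0.377 to 0.937 with a median of 0.811. The highest was that of Mcpt1 with Mcpt2 and the lowest that of Mcpt1 with Tpsb2, on both measures. Signal shared between the probes of similar chymase genes was not tested. Mcpt4, of connective tissue mast cells, correlated about as closely with the mucosal Mcpt2 (0.92) as with Cpa3 (0.93) after removal of the group means. These are descriptions, since arrays share mice, slides and scaling. Kit correlated with the 7 genes by 0.52 to 0.74 over all arrays and by -0.19 to -0.04 once group means were removed. Kitl had correlations of 0.16 to 0.42, and -0.06 to 0.19 with group means removed.

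**Figure D4:**
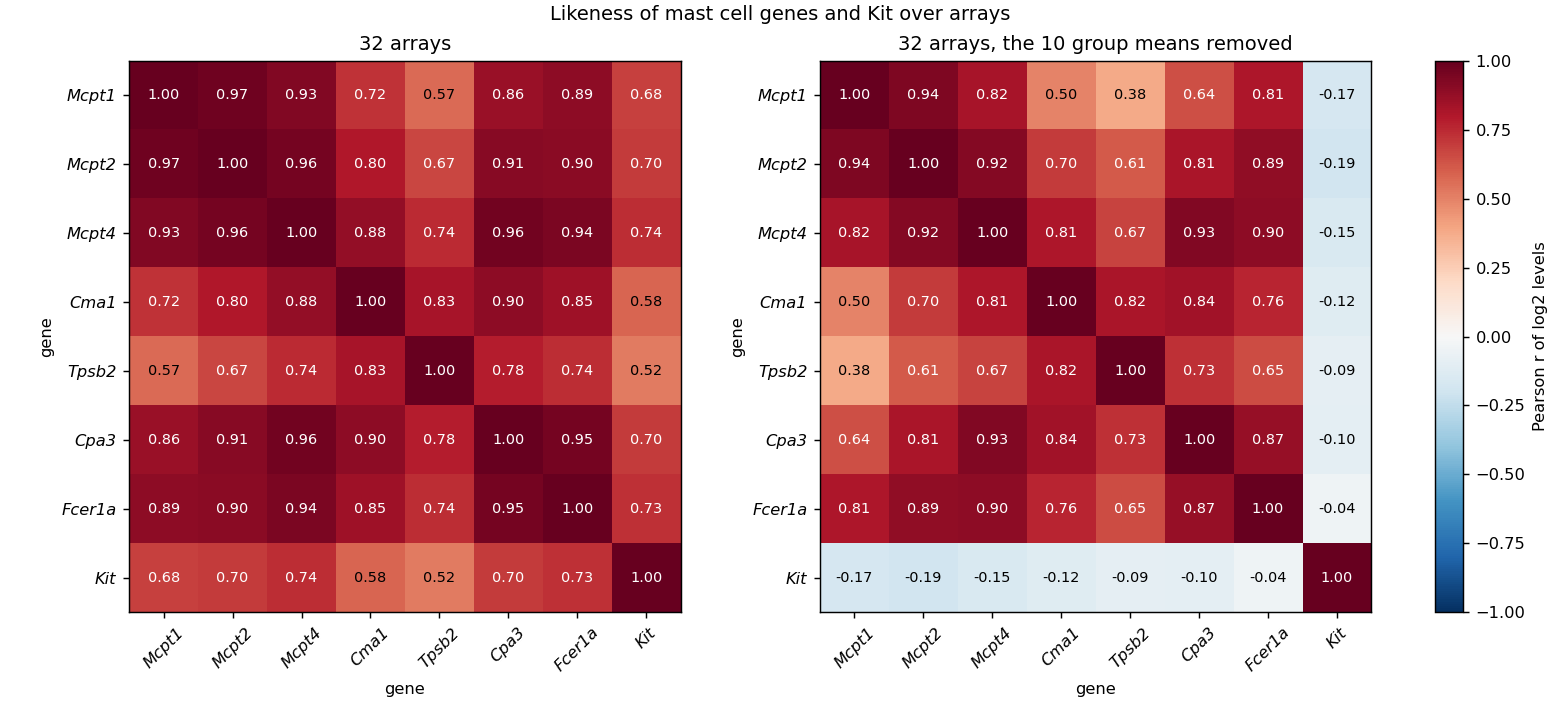
Pearson correlations of log2 levels among the 7 measured genes and Kit over 32 arrays, before (left) and after (right) removal of the 10 group means; colour and number give r. The block of the 7 genes stays between 0.38 and 0.94 on the right, while the row of Kit turns to values between -0.19 and -0.04.

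Among 16575 genes compared, the one most like the mean of the 7 over the 32 arrays was Mcpt-ps1 (r = 0.922), the chymase pseudogene next to Cma1, followed by Tph1 (0.854) and Cyp11a1 (0.848), the side-chain cleavage enzyme of steroid synthesis. Tspan33, Il21r, Speer5-ps1 and Cd72 were also among the 8 most alike, at 0.839 to 0.835. With group means removed, Mcpt-ps1 (0.874) and Tph1 (0.854) led again, followed by Cma2 (0.819), another neighbour in the chymase cluster, and the list also held Il1rl1 (0.751), the IL-33 receptor of mast cells, with Speer4d, Zfp112, Gm9758 and Speer5-ps1. Mcpt1, Mcpt2, Mcpt4 and Cma1 enter the mean of the 7. Signal shared between their probes and those of Mcpt-ps1 and Cma2 was not tested. No relation between a gene's EC level and its bulk level in the same tumour passed a test. Across the 12 mice, with group means removed, r was 0.07 to 0.44 (Spearman's rho 0.17 to 0.55), and the smallest p of 7 relations by an exact two-sided permutation within treatment groups was 0.231 (adjusted 0.340). For rho the smallest exact permutation p was 0.102 (adjusted 0.457). Without the 2 mice farthest from the median, r was -0.12 to 0.53. The treatment groups hold 4 mice each, too few for a correlation within a group.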

How the data were processed

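The 32 tumour RNA samples were hybridised to Agilent mouse arrays in 1 colour. The scanner files hold intensity values that, per the file headers, Agilent Feature Extraction 10.7.3.1 subtracted for background and detrended within each array, whereas the submitters' processing notes name version 9.1. The authors also deposited a table of normalised intensity values for all samples, made in R by a method not given in the sources used here. It served as an alternative.

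Replicate spots of a probe were averaged after leaving out 5014 outlier-flagged spots, which gave 55681 probes. No spot was saturated. RefSeq accessions named 26582 probes, for 20145 genes, each represented by its brightest probe over all arrays. For a level, each processed signal was divided by the 75th percentile on its array and log2 was taken. Genes and unnamed probes entered a test when called well above background on at least 4 arrays of a fit, or 2 for the smaller tumours.

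limma 3.58.1 in R 4.3.3 (with data.table, version 1.17.8) gave 12 comparisons in 5 fits, with Benjamini-Hochberg adjustment over named genes and unnamed probes together and a threshold of 0.05. Every adjusted p below is limma's. EC and bulk of one mouse were analysed as a within-mouse difference. Deviations from the group means of the 2 fractions of a mouse correlated by -0.08 to 0.37. The fits were tested on simulated data with known changes. No depth exists for array signals, so the number of arrays limits the precision. The highest correlation between any 2 arrays was 0.988, and none was treated as a duplicate. The genes studied and all marker lists were chosen with earlier results of these data known. The text names the 8 genes, Kit and Kitl, at most the 4 smallest adjusted p of a list, list genes that mark mast cells, and the 8 genes most alike in level, of which some are not reported here. Alternatives were normexp background correction (on the median signal, since the scanner files used here hold no mean signal), quantile normalisation, the deposited table, other filters, the mean of probes, only the 2 groups compared, mouse number as a block, and each array left out. The other Tpsb2 probe, adjustment over named genes alone, day 9 and 600 mm3 apart, the latter without each of its 4 arrays, and the correlation of both fractions over mice were added after the data were seen. Slide as a block was not run, because the resistant mice lie on a slide of their own, and the EC and bulk arrays of the other mice at 1300 mm3 on 1 slide each. Python 3.11.15 with matplotlib 3.10.9 made the figures.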

Additional observations from a re-analysis of the deposited data

Results flagged for a closer look

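One value stood far from the others of its group. Ms4a2 in the bulk of resistant mouse 2 was -3.37, while the nearest of the other 3 resistant bulk samples was -6.97, so that the gap made up 0.921 of the whole range of the group. The probe was not well above background on that array or on any other bulk array at 1300 mm3. A total of 48 groups of 4 samples were looked at over the 8 genes, and chance marks about 5% of such groups. No difference between the effects of sunitinib in 2 fractions or at 2 times passed its test with all mice for any of the 7 measured genes.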

How the results depend on the processing

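The higher level of all 7 genes in the EC fraction kept its direction and 7 calls without any 1 of the 12 mice and under each scaling, with 5 called when every array had to be well above background, where fewer genes are tested, 6 in sensitive mice alone and 3 in vehicle mice alone. In the EC fraction of resistant against vehicle mice 1 gene was called in the main setting, 2 with normexp correction, quantile normalisation, the deposited values or the other Tpsb2 probe, and 0 to 5 without single mice. In the bulk fraction, the mean of the probes and the other Tpsb2 probe ended the call of Tpsb2, leaving 0 genes, and the deposited values gave 2 for resistant against sensitive mice. The EC minus bulk effect of resistance had 0 to 1 calls without single mice. The cause of these changes was not tested, beyond the choice of probe or of mice. Mouse numbers do not mark the same animal across treatments, since the treatment groups are separate mice. Deviations of same-numbered mice correlated by -0.20 to 0.22. That range overlaps the -0.08 to 0.37 of both fractions of one mouse, so these correlations cannot decide the point. With the mouse number as a replicate block the calls were 6 for resistant against vehicle mice and 5 for resistant against sensitive mice in the EC fraction, and 0 for both in bulk.

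Values that changed sign were not called in any setting. Cma1 was -0.20 with normexp for bulk resistant against sensitive; 0.11 in the deposited values, 0.22 after quantile normalisation and 0.18 with the replicate block for bulk resistant against vehicle; and 0.0102 and 0.19 in the deposited values and with normexp for bulk sensitive against vehicle. Cpa3 was -0.0579 in the deposited values for bulk resistant against vehicle, Fcer1a was -0.0157 with normexp for bulk resistant against sensitive, and Tpsb2 was -0.0687 for EC resistant against sensitive and 0.0146 for bulk vehicle at 1300 mm3 against smaller tumours in the deposited values. Kit was -0.16, -0.19 and -0.23 for EC resistant against vehicle (deposited, quantile, replicate block) and -0.0496 and -0.0353 for bulk resistant against sensitive (quantile, replicate block). Mcpt1 was -0.0660 and -0.16 for the resistant effect in EC minus bulk (deposited, quantile). At day 9 alone Mcpt1 was 1.08 and Mcpt2 1.11.

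Without single mice, sign changes came with these ranges, none of them called. For EC resistant against sensitive mice they were Cma1 -0.18 to 0.86 and Tpsb2 -0.14 to 0.81. In bulk, resistant against sensitive mice they were Cma1 -0.66 to 0.60 and Kit -0.37 to 0.26. In bulk, resistant against vehicle mice they were Cma1 -0.76 to 0.51, Cpa3 -0.29 to 1.08, Kit -0.0730 to 0.62, Mcpt2 -0.0549 to 1.07 and Mcpt4 -0.16 to 0.72. In bulk, sensitive against vehicle mice they were Cma1 -0.51 to 0.48, Cpa3 -1.07 to 0.31, Fcer1a -0.42 to 1.03, Kit -0.13 to 0.76 and Mcpt4 -0.65 to 0.23. For vehicle bulk at 1300 mm3 against smaller tumours they were Cma1 -1.31 to 0.71, Kit -0.44 to 0.26, Mcpt1 -0.64 to 0.55, Mcpt2 -1.21 to 0.55, Mcpt4 -1.22 to 0.52 and Tpsb2 -0.65 to 0.44. For the effect at 600 mm3 minus that at day 9 they were Cma1 -3.88 to 0.16 and Tpsb2 -2.06 to 0.12. For the resistant effect in EC minus bulk they were Fcer1a -0.36 to 1.32, Kit -0.56 to 0.14 and Mcpt1 -0.49 to 1.06. For the sensitive effect in EC minus bulk they were Fcer1a -0.35 to 1.34 and Kit -0.0048 to 0.81. For EC resistant against vehicle mice they were Kit -0.10 to 0.13. For EC sensitive against vehicle mice they were Mcpt1 -0.99 to 0.74 and Mcpt2 -0.11 to 1.14.

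A filter demanding every array well above background, no filter, the 2 groups compared alone and adjustment over named genes alone changed no count of called genes among the 7 by over 1.5 times. Over all features, the count called was 4292 in the main setting against 7527 (quantile) and 7612 (deposited) for bulk resistant against vehicle mice, and 6028 against 9297 and 9623 for bulk resistant against sensitive mice. It was 125 against 200 (normexp), 814 (quantile) and 972 (deposited) for the resistant effect in EC minus bulk, 2529 against 4120, 4011 and 5273 for vehicle tumours at 1300 mm3 against smaller ones, and 18 against 48 (normexp) for the effect at 600 mm3 minus day 9. For sunitinib in smaller tumours it was 0 against 9 (normexp) and 1 (deposited). Smaller tumours have 2 mice a group. Fcer1a and Cma1 were not well above background in some bulk samples at 1300 mm3, Ms4a2 was not in any of the 12, and Mcpt1, Mcpt2, Fcer1a and Ms4a2 were not in sunitinib mouse 4 at 600 mm3. Slide as a block was not run.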
